A study of Mus musculus with 30 samples.

Results

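The livers compared here came from male C57Bl/6 mice that had received water as vehicle, 4 mice for 5 days and 4 mice for 24 h. Their 8 arrays were taken by title from the 30 arrays of the series, and every probe set on the array was considered, controls included. In the remaining 22 arrays, mice had been given 1 of 3 piperidine agonists of PPAR-alpha, CP-775146, CP-868388 or CP-865520, at 1 mg/kg per day for the same times, with 4 arrays in each group except CP-775146 at 5 days, which had 2. The agonists are known here only by these code names. Each array was counted as 1 mouse, following the numbers of mice in the design text, and the labels do not say whether the livers of the different times were collected, labelled or scanned together. Time and any such run therefore cannot be told apart in the vehicle livers. The p-values measure the spread between these arrays.

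PPAR-alpha is a nuclear receptor that switches on genes of fatty acid uptake and oxidation in the liver. A vehicle group sets the level against which an agonist is read at its own time, so a difference between the vehicle groups is a difference between the baselines. Each probe set on this Affymetrix array is a group of short oligonucleotides designed against 1 transcript. The end of its ID records the design: a plain _AT is specific to 1 transcript, _S_AT, _G_AT and _F_AT are shared between related transcripts or a gene family, _I_AT holds fewer probes than usual, and _R_AT is a set for which some of the usual probe selection rules had to be dropped. No gene is named beside the probe sets in the table, so probe sets are given by ID and the liver label could not be checked against hepatocyte markers. No sequence is shown because none is tied to the probe sets in the sources used here.

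The deposited values are linear intensities that had been scaled to nearly 1 mean per array (314.1 to 318.2), and no value lies under a floor of 50, which 50.3% of all values share. Of 12488 probe sets, 8002 lay above the floor on at least 2 arrays and were tested, among them 39 of the 66 control probe sets. A difference is given as log2 of (value + 50), 5 days minus 24 h, a scale on which the change of a dim probe set is understated. A probe set at the floor has only an upper bound there. A call is an adjusted p under 0.05 from limma, fitted to all 30 arrays with Benjamini-Hochberg adjustment over all 8002.

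The transcript profile of vehicle livers differed between the times over a large number of probe sets, each by a small amount. In the limma fit, 904 probe sets rose and 915 fell at 5 days against 24 h, which is 22.7% of those tested (11.3% higher and 11.4% lower). An unadjusted p under 0.05 was reached by 2902. The median difference of the called probe sets was 0.43 among those that rose and -0.44 among those that fell, which correspond to median ratios of mean intensity of 1.51 (5 days over 24 h) and 1.48 (24 h over 5 days). Across all tested probe sets the median absolute difference was 0.17, with a median standard error of 0.12, and 95% of probe sets differed by less than 0.60. Differences of 2-fold or more on the log2 scale were reached by 9 of the probe sets that rose and 7 of those that fell. By the ratio of mean intensities, which gives dim probe sets more room, 54 of those that rose and 36 of those that fell passed 2-fold. The 95% interval of the difference lay inside 2-fold in both directions for 96.3% of all tested probe sets. The extremes were a rise of 2.12, in an 18S rRNA control described below, and a fall of -1.71.

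The arrays of the 2 times did not overlap for 1743 tested probe sets, or 21.8%, of which 826 were higher at 5 days (10.3%) and 917 lower (11.5%). Of the called probe sets, 635 that rose and 627 that fell were free of overlap, while in 557 at least 1 array of one time reached the range of the other. All 4 of the 24 h arrays were at the floor for 107 of the probe sets that rose, and all 4 of the 5 day arrays for 58 of those that fell. The 5 day arrays were the less even group. The mean log2 level over the 892 probe sets, controls aside, that rose was 8.01, 8.15, 8.10 and 8.08 in 5 day replicates 1 to 4, and it lay between 7.62 and 7.66 on the 24 h arrays. Over the 915 that fell it was 7.95, 7.76, 7.69 and 7.91 in the same 5 day replicates and 8.23 to 8.34 on the 24 h arrays. Those levels describe the probe sets chosen on these arrays and are no test. Replicate 1 stood nearest to the 24 h arrays on both counts, and replicates 2 and 3 farthest on the probe sets that fell. Leaving out 5 day replicate 2 brought the calls to 615 higher and 573 lower, leaving out 5 day replicate 3 to 718 higher and 528 lower, and leaving out 24 h replicate 4 to 640 higher and 600 lower. A fit of the 8 vehicle arrays alone called 588 higher and 576 lower, of which 982 were also called, in the same direction, in the fit of all arrays.

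The even split between rises and falls depends on how the arrays are scaled. It was 801 higher and 856 lower after quantile normalization, 800 and 977 after centring on each array's median, and 1017 and 827 after centring on those probe sets that no array had at the floor. Centring each array on its 9 hybridisation spikes, RNAs added in a fixed amount with the hybridisation mix, lowered the median of all probe sets by 0.35 and turned the calls into 35 higher and 3608 lower. The spikes themselves stood higher on the 5 day arrays, as given below. All differences in what follows are relative to the scaling in which the values were deposited, where the median over all tested probe sets was 0.

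**Figure D1:**
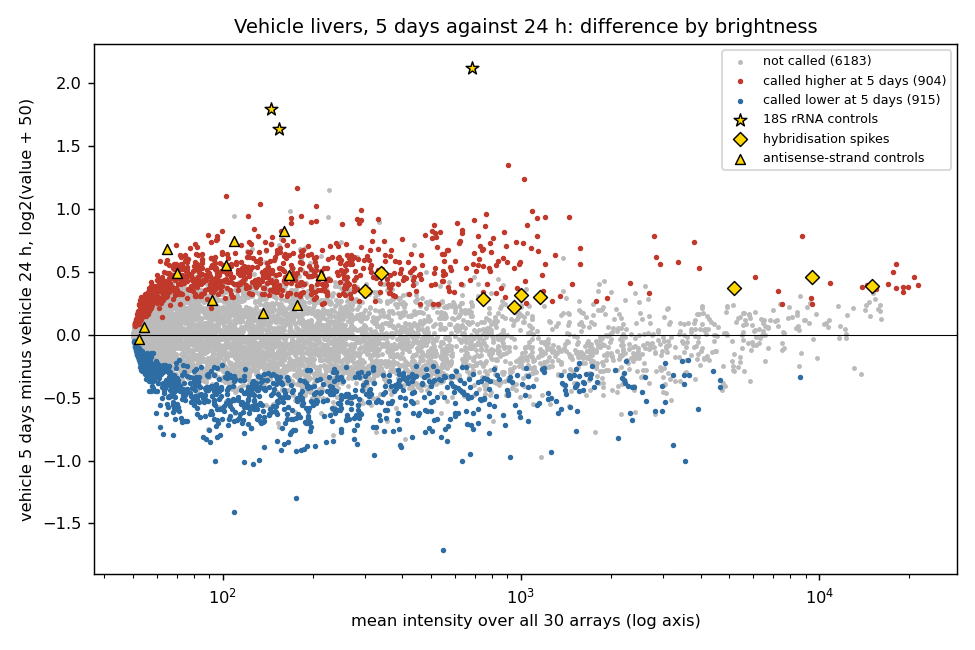
Difference between vehicle livers of 5 days and 24 h (log2 of value + 50) against the mean intensity over all 30 arrays (log axis), 1 point per tested probe set. The called probe sets, 904 above and 915 below the line, form bands on both sides at most intensities. Above an intensity of 5000 they lie nearly all above the line, and the 3 stars of the 18S rRNA controls stand at 1.64 to 2.12.

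Among probe sets other than controls, 4 are traced here, 2 in each direction, taken by the size of their change among those called, with no overlap and a mean of at least 200 in the brighter group. These 4 were chosen on the vehicle arrays, so their vehicle values are a description. The 18S rRNA controls, given further on, rose by more. Probe set 98590_AT had intensities of 1954, 2416, 2420 and 2141 in vehicle livers at 5 days, against 917, 994, 728 and 762 at 24 h. Every 5 day array lay well above the highest 24 h array, with a difference of 1.35 ± 0.10 (SE) and an adjusted p in the limma fit of 5.45e-09. Probe set 162006_R_AT stood at 1277, 1434, 1745 and 1292 at 5 days, against 561, 475, 657 and 625 at 24 h. The difference was 1.24 ± 0.14 (SE), with an adjusted p in the limma fit of 1.87e-06.

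Probe set 103015_AT gave 54, 50, 50 and 50 at 5 days, against 197, 437, 95 and 248 at 24 h. It was thus at or next to the floor in all the 5 day livers and above it, though over a wide range, in all the 24 h livers, and the difference of -1.41 ± 0.33 (SE, adjusted p in the limma fit 0.00351) is limited by the floor. Probe set 162011_F_AT gave 50, 50, 123 and 84 at 5 days, against 253, 209, 278 and 277 at 24 h. Here both groups are clear of each other, and some of the 5 day values are at the floor. The difference was -1.30 ± 0.26 (SE), with an adjusted p in the limma fit of 0.0011. Each of the 4 probe sets was called in all 20 alternatives tried.

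The intensities of the agonist arrays entered the choice through the filter and the spread of the fit, but not through the size of the difference. For the same probe sets they gave the following. For 98590_AT the 5 days minus 24 h difference was 0.78 under CP-775146, 0.84 under CP-868388 and, lowest of the 3, 0.48 under CP-865520, all called, with intensities of 640 and 927 at 5 days against 416 to 437 at 24 h under CP-775146. For 162006_R_AT it was 1.16, 1.26 and 0.77 under the compounds in that order, all called. The 3 groups of agonist-treated livers at 5 days had means of 1486, 1490 and 1373 for this probe set, close to the 1437 of vehicle livers at 5 days. For 103015_AT the difference was -1.17 under CP-775146, which was called (adjusted p in the limma fit 0.0318), and -0.31 and -0.47 under CP-868388 and CP-865520, which were not (0.677 and 0.306). For 162011_F_AT it was -1.46 under CP-775146 and -1.33 under CP-865520, both called, and -0.36 under CP-868388, which was not called (adjusted p 0.472). Under CP-868388 this probe set read 50, 144, 50 and 204 at 24 h, where vehicle livers had 209 to 278. Both floor values are on replicates 1 and 3, whose log2 ratio of 5' to 3' Gapdh signal was -0.55 on each, and the part of RNA quality in them was not tested.

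**Figure D2:**
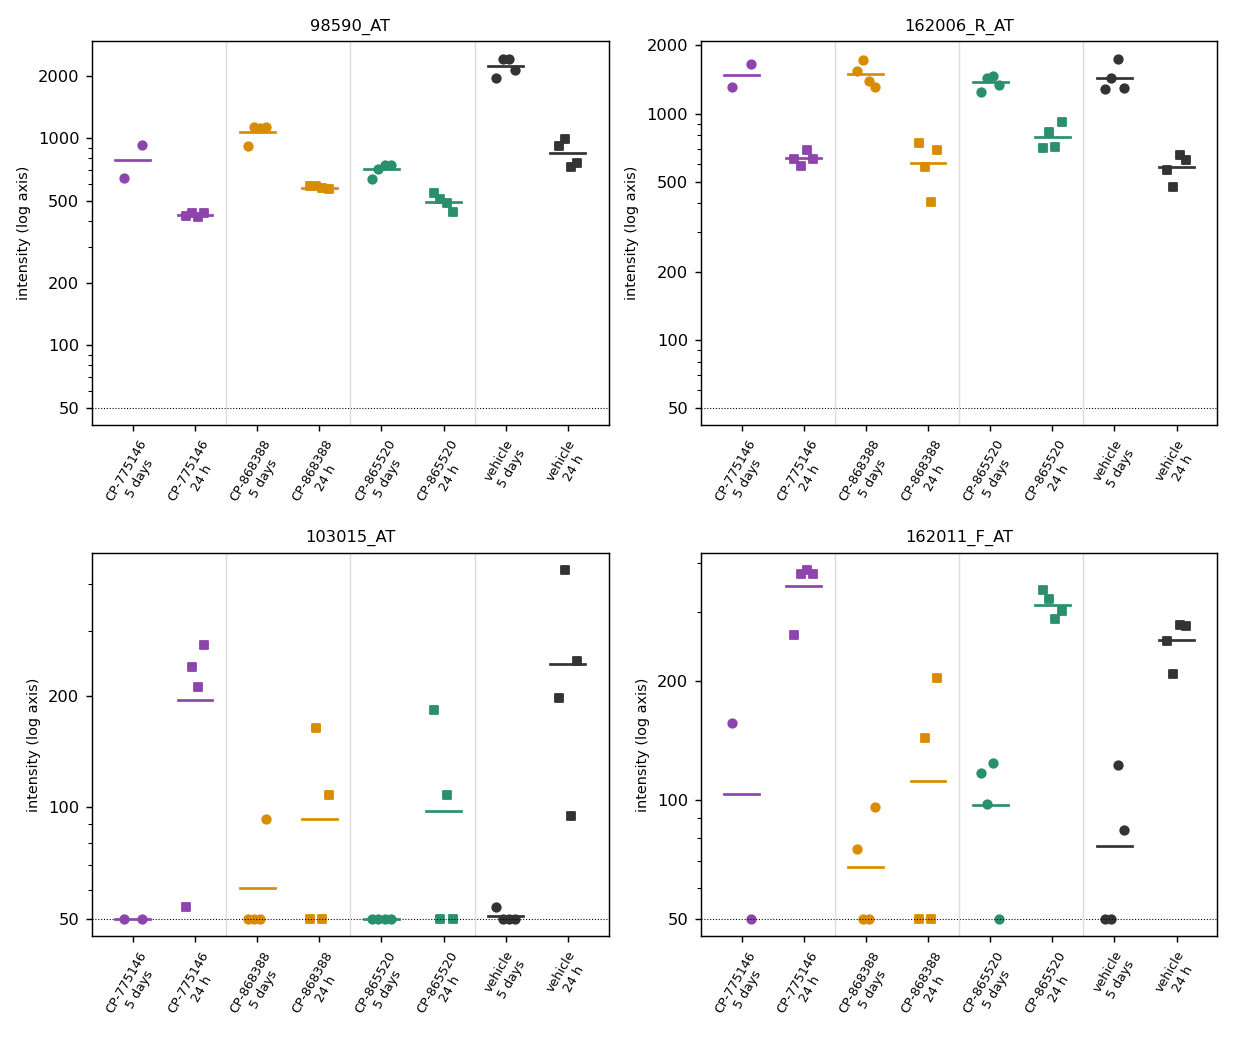
Intensity (log axis) of 4 probe sets on every array, with 5 days (circles) left of 24 h (squares) for each compound and for vehicle. Bars are group means (n = 4, and n = 2 for CP-775146 at 5 days), and the dotted line is the floor of 50. The time difference of 98590_AT and 162006_R_AT is seen under all treatments, while 103015_AT and 162011_F_AT have arrays at the floor at 5 days in every group and are uneven at 24 h under CP-868388.

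The share of probe sets called changed with brightness less than their direction did. By mean intensity over all 30 arrays, 17.1% were called up to 60, between 21.9% and 27.8% in each class from 60 to 2000, 16.1% from 2000 to 5000 and 17.8% above 5000. The direction was nearly balanced among dim probe sets, with 238 higher and 211 lower between 60 and 100. Between 1000 and 2000 there were 23 higher and 47 lower, and between 2000 and 5000 there were 8 higher and 32 lower. Above 5000 it turned round, with 22 higher and 1 lower of 129. The median difference followed the same course, at 0.03 between 60 and 100, -0.09 between 500 and 1000, -0.14 between 1000 and 2000 and 0.10 above 5000. Of the probe sets between 1000 and 2000, 26.6% were higher at 5 days by any amount, and of those above 5000, 72.1%. The calls above 5000 were uneven between probe set designs. Family sets (_F_AT) had 11 of 26 higher (42.3%) and 0 lower, with a median of 0.27. Plain _AT sets had 7 of 79 higher (8.86%) and 1 lower, with a median of 0.07. With the control probe sets left out, the class above 5000 had 19 higher and 1 lower of 121.

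The 129 brightest probe sets held 30.6 ± 1.92% of all signal on the 5 day arrays, against 27.3 ± 1.33% on the 24 h arrays (SD, n = 4 each), and the 5 day arrays, at 29.0, 31.6, 32.8 and 29.0%, all lay above the 24 h arrays at 25.7 to 28.9%. The exact two-sided permutation test gave p = 0.0286, the smallest that 4 against 4 arrays allow, and 0.0857 after Benjamini-Hochberg adjustment over 3 array measures that were chosen after the data had been seen. The brightest value on an array was 23169 to 29064 at 5 days, against 18217 to 22078 at 24 h. The direction among bright probe sets was sensitive to scaling and to single arrays. After quantile normalization the class above 5000 had 9 higher and 1 lower, and probe sets between 1000 and 5000 had 56 higher and 43 lower in place of 31 and 79. After centring on the spikes the class above 5000 had 1 higher and 38 lower of 129, beside 35 higher and 3608 lower of all 8002 tested. Without 5 day replicate 3 it had 11 higher, without 5 day replicate 2 or 24 h replicate 4 it had 13, and in the fit of vehicle arrays alone it had 8. Between 1000 and 5000, 30 were lower without 5 day replicate 2, 42 without 5 day replicate 3 and 43 without 24 h replicate 3.

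Probe sets built under relaxed selection rules were called higher more often than the rest of the array. Of 429 tested _R_AT probe sets, 173 rose and 9 fell at 5 days, or 40.3% and 2.10%, beside 11.3% and 11.4% of all probe sets, and 247 were not called. Their median difference was 0.28. Of 6346 tested plain _AT probe sets, 548 rose and 795 fell, or 8.64% and 12.5%, with a median of -0.02. Family sets (_F_AT, 678 tested) had 16.4% higher and 7.37% lower, and sets with few probes (_I_AT, 132 tested) had 18.2% and 8.33%. Of 241 _S_AT sets, 6.64% were higher and 13.3% lower, so rises were fewer than among all probe sets. Of 137 _G_AT sets, 14.6% were higher and 13.1% lower.

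The share of _R_AT probe sets called higher was larger in each brighter class up to 1000, which holds 407 of them. Called higher were 18.4% of those with a mean up to 60, 30.5% from 60 to 100, 38.8% from 100 to 200, 58.8% from 200 to 500 and 71.1% of 38 from 500 to 1000, where the median difference was 0.65. Of the 22 brighter ones, 18 rose and 0 fell in the limma fit. Plain _AT probe sets of the same brightness classes had 7.49%, 12.03%, 9.96%, 7.58% and 6.24% called higher. Some probe sets read related transcripts, so they are not independent of each other. Between 147 and 183 of the _R_AT probe sets rose when any 1 vehicle array was left out, and between 131 and 181 under the other alternatives except centring on the spikes. That centring left 22 of the 429 higher and 70 lower, beside 35 higher and 3608 lower of all 8002 tested. The class median was then -0.07, where plain _AT stood at -0.37. The gap between these medians cannot change under this centring, which moves all probe sets of an array alike. The count of plain _AT probe sets that fell was 795 with all arrays, 507 without 5 day replicate 2, 457 without 5 day replicate 3 and 499 in the fit of the vehicle arrays alone.

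**Figure D3:**
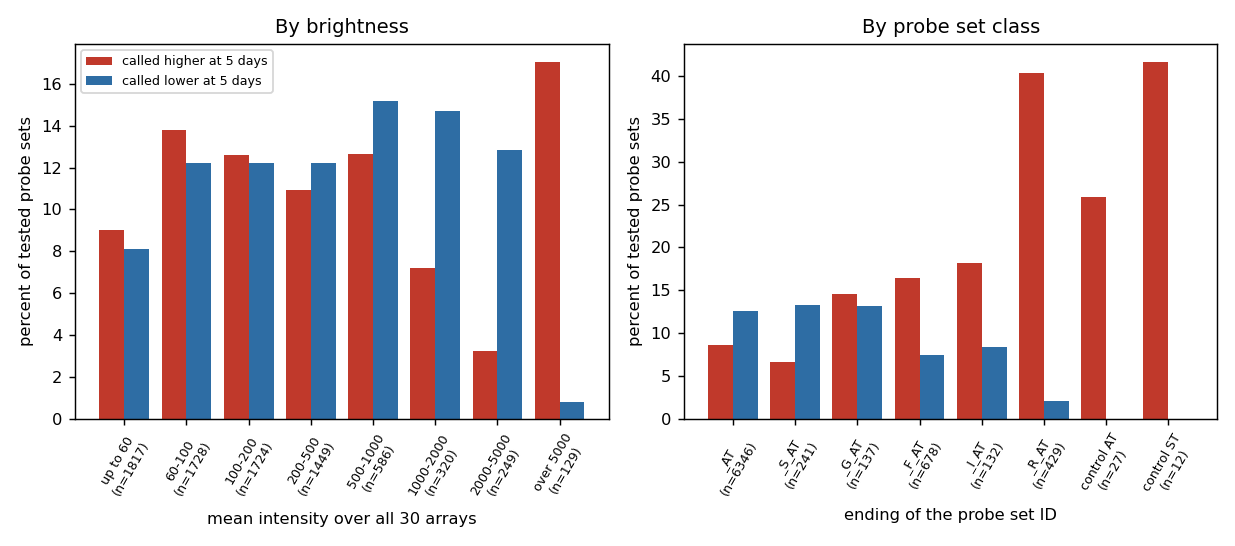
Percent of tested probe sets called, in vehicle livers, higher (left bar) or lower (right bar) at 5 days against 24 h, by mean intensity over all 30 arrays in one panel and by the ending of the probe set ID in the other, with the number tested under each class. The _R_AT bar at 40.3% and the antisense-strand controls, with 5 of 12 called higher, stand above the other classes, and above an intensity of 5000 the lower bar nearly vanishes.

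Of the 39 control probe sets tested, 12 were called (30.8%, beside 22.7% of all tested probe sets), and all 12 were higher at 5 days. The 3 controls of 18S ribosomal RNA, the RNA of the small ribosomal subunit, had the most marked rise. Ribosomal RNA lacks the poly-A tail that the usual labelling of this array type starts from. The 3' probe set of 18S read 1676, 1828, 1919 and 1660 at 5 days, against 433, 452, 357 and 261 at 24 h. The 5' probe set read 491, 384, 351 and 371 at 5 days, against 103, 54, 91 and 72 at 24 h. The middle probe set read 399, 399, 264 and 310 at 5 days, against 76, 92, 75 and 59 at 24 h. No 5 day array came near a 24 h array in any of the 3. The differences were 2.12 ± 0.32, 1.79 ± 0.30 and 1.64 ± 0.34 (SE), with adjusted p in the limma fit of 6.82e-05, 0.000243 and 0.00152, and all 3 were called in all 19 alternatives that kept the controls.

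Control probe sets with IDs ending in _ST read the strand opposite to the one their _AT partners read. Of 12 tested, 11 were higher at 5 days, 5 of them called, and the median difference was 0.47. The 12 pool probe sets of mouse beta-actin and Gapdh with probe sets of the hybridisation spikes. Those of beta-actin and Gapdh differed by 0.47 to 0.83, and those of the spikes by -0.04 to 0.47. The 3' antisense probe set of beta-actin, a cytoskeletal protein, read 203, 303, 273 and 282 at 5 days, against 122, 159, 129 and 100 at 24 h (0.83 ± 0.15 SE, adjusted p in the limma fit 0.00058). Its 5' partner read 77, 116, 125 and 143 at 5 days, against 50, 55, 52 and 51 at 24 h (0.68 ± 0.09 SE, adjusted p 1.02e-05). The middle antisense probe set of Gapdh, a glycolytic enzyme, read 164, 196, 182 and 200 at 5 days, against 81, 84, 94 and 105 at 24 h (0.74 ± 0.18 SE, adjusted p 0.00547). In these 3 the 5 day arrays all lay above the 24 h arrays. The middle antisense probe set of beta-actin (0.49) and the 3' antisense probe set of the Cre spike (0.47) were called as well. Centring on the spikes left 1 of the 12 called higher and 1 called lower, beside 35 higher and 3608 lower of all 8002 tested. The median of the 12 was then 0.12.

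Of the 12 tested sense-strand probe sets of mouse transcripts, none was called in the limma fit and 1 had an unadjusted p under 0.05, while 10 were lower at 5 days and the median was -0.26. The 3' probe set of Gapdh read 6438, 5369, 4738 and 6197 at 5 days, against 6934, 6874, 6887 and 6955 at 24 h. The arrays did not overlap, yet the difference of -0.29 ± 0.17 (SE) had an adjusted p of 0.229 in the limma fit. It was called in 1 of 19 alternatives. The 3' probe set of beta-actin differed by -0.22 (adjusted p 0.424) and that of pyruvate carboxylase, an enzyme of gluconeogenesis, by -0.29 (adjusted p 0.0769). Of 3 probe sets of the mouse short interspersed repeats B1 and B2, none was called in the limma fit and 1 had an unadjusted p under 0.05. The brightest, of B2, read 17091, 19447, 19426 and 16935 at 5 days, against 15872, 15621, 15524 and 14605 at 24 h (0.24 ± 0.10 SE, adjusted p 0.0715, and -0.03 after quantile normalization).

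The 9 hybridisation spikes, of the bacterial biotin genes BioB, BioC and BioDn and of phage Cre, were all higher at 5 days by 0.22 to 0.49, and 4 were called. The 3' Cre spike read 15058, 19394, 19398 and 15934 at 5 days, against 14043, 15106, 11997 and 12021 at 24 h (0.39 ± 0.12 SE, adjusted p in the limma fit 0.0205). The 3' BioB spike read 441, 470, 413 and 433 at 5 days, against 339, 305, 288 and 266 at 24 h (0.49 ± 0.14 SE, adjusted p 0.0146). The mean log2 of the 9 spikes was 10.90 ± 0.17 on the 5 day arrays and 10.55 ± 0.17 on the 24 h arrays (SD, n = 4 each). The groups overlapped, with an exact two-sided permutation p of 0.0571 and 0.0857 after adjustment over the 3 array measures. With 24 h replicate 4 left out 0 of the 9 were called, with 5 day replicate 2 or 3 left out 1, and with 24 h replicate 1 or 5 day replicate 1 left out 6, while the median stayed between 0.27 and 0.43. The 15 probe sets of the poly-A spikes were at the floor on every vehicle array.

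The ratio of signal at the 5' end to signal at the 3' end did not differ between the times beyond the spread between arrays. For Gapdh, the 5' control over the 3' control gave a log2 ratio of 0.03 ± 0.04 at 5 days and 0.02 ± 0.11 at 24 h (SD, n = 4 each). For pyruvate carboxylase it was -1.40 ± 0.16 at 5 days and -1.39 ± 0.16 at 24 h, and for beta-actin -0.80 ± 0.18 at 5 days and -0.61 ± 0.12 at 24 h. The exact two-sided permutation p was 1 for Gapdh, 0.943 for pyruvate carboxylase and 0.2 for beta-actin (0.6 after adjustment over the 3 ratios), and the smallest possible is 0.0286. With the mean of these ratios as a covariate, 933 probe sets rose and 991 fell. The number of probe sets above the floor was 6480 to 6741 at 5 days, against 6297 to 6493 at 24 h (exact permutation p = 0.0857, the same after adjustment). What part the run of the arrays had in the 18S, spike and antisense values, and in the calls they accompany, was not tested.

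**Figure D4:**
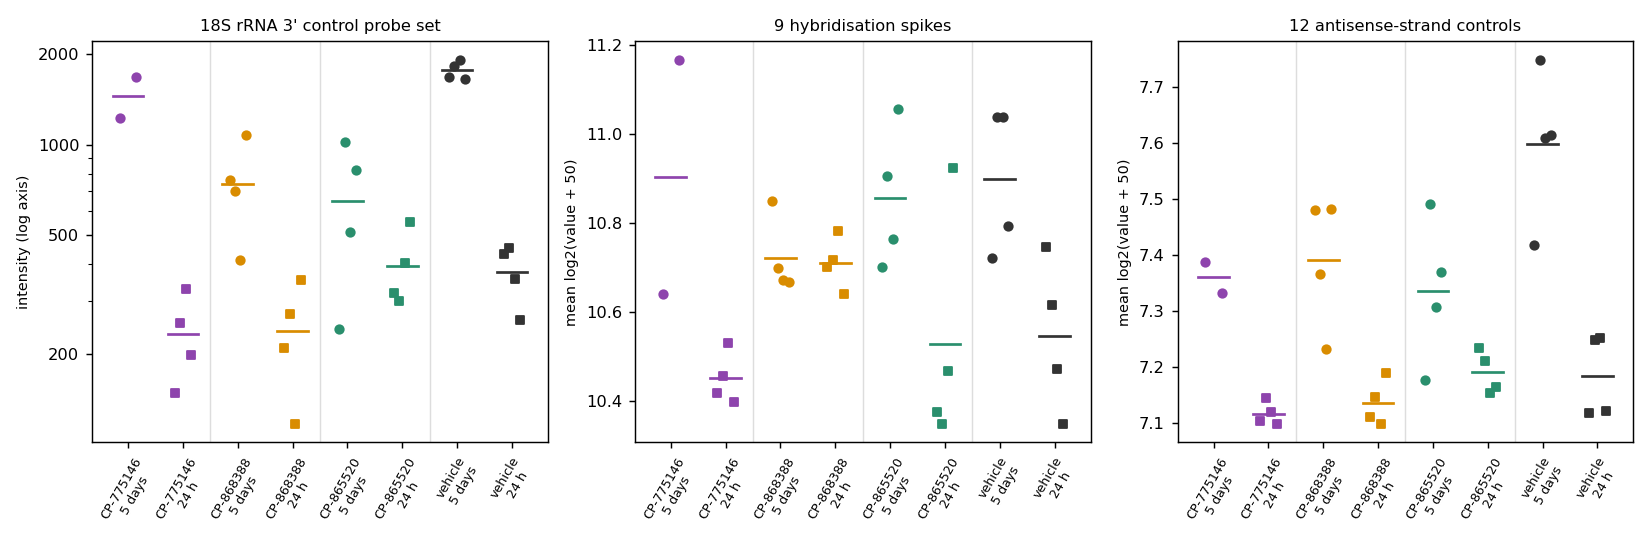
Controls on every array, with 5 days (circles) left of 24 h (squares) for each compound and for vehicle, and bars at group means (n = 4, and n = 2 for CP-775146 at 5 days). The panels give the intensity of the 3' probe set of 18S rRNA (log axis), the mean log2 of (value + 50) of the 9 hybridisation spikes and that of the 12 antisense-strand controls (mouse and spike sets pooled). Vehicle livers at 5 days stand above those at 24 h in the panels of 18S and of the antisense-strand controls without overlap, and the time difference under the compounds is uneven.

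The agonist groups showed part of the same shift. Differences between the compounds in how much of it they showed were not tested. These comparisons, 5 days minus 24 h within a compound, share no array with the vehicle comparison, although all use the spread of the 1 fit. Over the 892 probe sets, controls aside, that rose in vehicle livers the median difference was 0.15 under CP-775146, 0.20 under CP-868388 and, the lowest value, 0.02 under CP-865520, against 0.43 under vehicle. Under CP-865520 other scalings gave 0.13 (quantile), 0.18 (centring on the median) and 0.12 (centring on probe sets never at the floor). The medians over all tested probe sets were then 0.003, 0.13 and 0.07 under this compound. As deposited, the median over the 915 that fell was -0.40, -0.06 and -0.33 in the same order of compounds, against -0.44 under vehicle. Under CP-868388 the other scalings gave -0.09, -0.12 and -0.09 for the falls, beside 0, -0.06 and -0.02 over all tested probe sets. The vehicle medians come from the arrays that chose the lists, which favours larger values there. The median over all tested probe sets was between -0.03 and 0.01 for each compound as deposited.

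Of the probe sets that rose in vehicle livers, 161 (18.05%) also rose under CP-775146, where 8.62% of all tested probe sets did so. Under CP-868388 it was 189 (21.2%), beside 5.69% of all. Under CP-865520 it was 74 (8.30%), beside 10.7% of all, so that the share was no higher than the background. Of those that fell in vehicle livers, 491 (53.7%) also fell under CP-775146, beside 18.1% of all tested, 61 (6.67%) under CP-868388, beside 2.86%, and 490 (53.6%) under CP-865520, beside 21.0%. In either direction, 26.7%, 8.55% and 31.8% of all tested probe sets were called for CP-775146, CP-868388 and CP-865520. Calls in the opposite direction were 4 and 12 under CP-775146, 3 and 11 under CP-868388, and 38 and 41 under CP-865520, for probe sets that rose and fell in vehicle livers in that order. As a share of each compound's own calls, the probe sets shared with vehicle made up 23.7%, 41.8% and 8.65% of the rises and 34.1%, 26.8% and 29.3% of the falls for CP-775146, CP-868388 and CP-865520.

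The signs alone were also counted, first in the deposited scaling. The same sign as in vehicle livers was found for 74.3%, 83.1% and 56.2% of the probe sets that rose and for 91.9%, 64.7% and 83.7% of those that fell, where over all tested probe sets the signs were alike for 65.4%, 60.7% and 58.1%. These shares depended on the scaling. After centring on the median they were 95.1%, 72.4% and 87.9% for the rises and 72.2%, 86.4% and 64.5% for the falls. The share over all tested probe sets was not counted in that scaling. As deposited, all 3 compounds had the vehicle sign for 386 of the 892 and for 522 of the 915. These are 43.3% and 57.0%, against 32.8% of all. Called in the vehicle direction under all 3 were 27 that rose and 42 that fell, and under none 599 and 338. These are 3.03% and 4.59% under all 3, beside 1.78% of all tested probe sets, and 67.2% and 36.9% under none, beside 67.9% of all. Having no call in the vehicle direction under any compound was thus about as common among the vehicle rises as among all tested probe sets. That count includes probe sets called in the opposite direction. The share of all pools both directions, although falls were called more often than rises under CP-775146 and CP-865520. Across the 7963 tested probe sets other than controls, Pearson's r between the vehicle difference and the compound difference was 0.55, 0.41 and 0.40, a description over probe sets that share their arrays and scaling.

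The mean of the 3 compound differences is less bound to any 1 group. By it, 39.7% of all tested probe sets were called, 15.9% higher and 23.8% lower, while of the vehicle lists 314 rose (35.2%) and 564 fell (61.6%). With any 1 agonist array left out, these were 260 to 334 and 497 to 581. The balance of the calls for the mean of the compounds turned with the scaling. It was 1276 higher and 1904 lower as deposited, 1978 and 1704 after quantile normalization, 2747 and 1540 after centring on the median and 2388 and 1611 after centring on probe sets never at the floor. The vehicle rises called were then 482 (54.0%, beside 24.7% of all), 559 (62.7%, beside 34.3%) and 504 (56.5%, beside 29.8%), and 27 (3.03%, beside 2.07%) after centring on the spikes. The vehicle falls called were 547, 486 and 504 in the same order (beside 21.3%, 19.2% and 20.1% of all), and 832 (beside 62.0%) after centring on the spikes. As deposited, the median of the mean difference was 0.13 over the probe sets that rose in vehicle livers and -0.27 over those that fell. Both are smaller in size than the vehicle values, but the lists were chosen by the vehicle difference, which favours this. The gap is therefore no measure of a smaller shift under the compounds. Beside it, the levels of the lists show where each compound stood. The mean log2 over the 892 probe sets was 7.81 at 5 days and 7.62 at 24 h under CP-775146, 7.84 at 5 days and 7.63 at 24 h under CP-868388, and 7.84 at 5 days and 7.79 at 24 h under CP-865520, against 8.08 at 5 days and 7.64 at 24 h under vehicle. Vehicle livers at 5 days were above all agonist groups, a position that the choice of the list on these arrays favours, and at 24 h the group given CP-865520 was above the others. Over the 915 probe sets it was 7.62 at 5 days and 8.09 at 24 h under CP-775146, 7.72 at 5 days and 7.83 at 24 h under CP-868388, and 7.68 at 5 days and 8.07 at 24 h under CP-865520, against 7.83 at 5 days and 8.28 at 24 h under vehicle. At 24 h the livers given CP-868388 were at 7.77, 7.89, 7.73 and 7.93 in replicates 1 to 4, of which replicates 1 and 3 had a low Gapdh ratio, as given below. The part of RNA quality in this level was not tested.

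**Figure D5:**
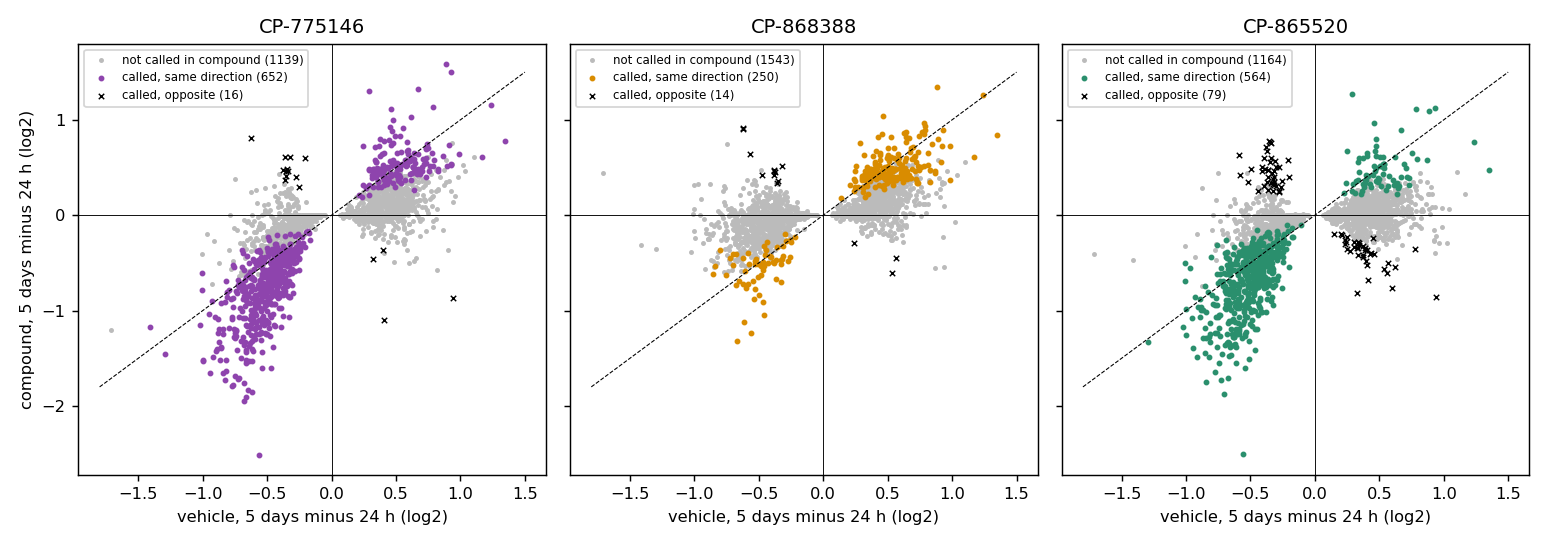
Difference between 5 days and 24 h under each compound against that in vehicle livers (log2 of value + 50), for the 1807 probe sets, controls aside, called in vehicle livers. The dashed line marks equal differences. Coloured points were called under the compound in the vehicle direction and crosses in the opposite one, and the cloud under CP-865520 follows the vehicle difference on the side of the falls but lies level on the side of the rises.

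Single arrays and the scaling bear on these counts. Without replicate 2 of CP-775146 at 5 days, 36 (4.04%) of the vehicle rises and 161 (17.6%) of the vehicle falls were called under that compound, beside 2.11% and 4.24% of all tested. For CP-868388, 110, 115, 121 and 86 of the vehicle rises were called without its 24 h replicate 2, its 24 h replicate 3, its 5 day replicate 1 and its 5 day replicate 2, beside 2.99% to 4.12% of all. Of the vehicle falls, 39 (4.26%) were called without 5 day replicate 2 of CP-868388, beside 1.76% of all. The 24 h replicates 1 and 3 of CP-868388, and 24 h replicate 4 of CP-865520, had a Gapdh log2 5' to 3' ratio under -0.4. Without these 3 arrays, 122 of the vehicle rises (13.7%, beside 3.34% of all) and 88 of the falls (9.62%, beside 2.94%) were called under CP-868388, with medians of 0.22 and -0.14. With the ratios as a covariate, its vehicle falls called came to 163 (17.8%, beside 5.40%). Centring on the median lifted the median of all probe sets to 0.13 under CP-775146 and 0.13 under CP-865520. Under quantile normalization, centring on the median and centring on probe sets never at the floor, the vehicle rises called came to 306 to 336 under CP-775146 (beside 15.7% to 17.8% of all), 112 to 145 under CP-868388 (beside 3.45% to 4.82%) and 149 to 315 under CP-865520 (beside 16.1% to 32.4%). The vehicle falls called under CP-868388 came to 85 to 116 (beside 3.71% to 4.76%). Under CP-865520 the share of vehicle rises was 17.4%, 35.3% and 16.7% in these 3 scalings, beside 16.1%, 32.4% and 19.1% of all. Centring on the spikes gave 11, 21 and 10 of the vehicle rises and 817, 8 and 747 of the vehicle falls for CP-775146, CP-868388 and CP-865520. Over all tested probe sets it gave 0.587%, 0.700% and 1.65% called higher and 57.5%, 0.575% and 54.2% called lower.

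The controls that rose in vehicle livers did so unevenly under the compounds. The 3' probe set of 18S differed by 2.43 under CP-775146 and by 1.45 under CP-868388, both called, and by 0.53 under CP-865520 (adjusted p in the limma fit 0.225), against 2.12 under vehicle. Under CP-775146 it read 1230 and 1680 at 5 days, against 149, 255, 331 and 199 at 24 h. Under CP-865520 it read 243, 1023, 511 and 825 at 5 days, against 320, 300, 402 and 554 at 24 h, and the groups overlapped. The mean log2 of the 9 spikes differed by 0.45, 0.01 and 0.33 under CP-775146, CP-868388 and CP-865520, and by 0.35 under vehicle. The mean over the 12 antisense-strand controls, mouse and spike sets pooled, differed by 0.24, 0.25 and 0.15, and by 0.41 under vehicle. The median over the _R_AT probe sets differed by 0.12, 0.12 and 0.01, and by 0.28 under vehicle. The part of these values in the shift of each compound was not tested.

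Whether the time difference under the compounds departed from that under vehicle was tested as an interaction, compound minus vehicle. For the mean of the compounds, 692 of 8002 probe sets were called (8.65%), 372 with a higher (4.65%) and 320 with a lower (4.0%) difference under the compounds. Among these were 185 of the 892 that rose and 158 of the 915 that fell in vehicle livers. The interaction holds the same vehicle arrays that chose those lists, so these counts give no independent measure of a smaller shift. For single compounds, 389 probe sets were called for CP-775146, 283 for CP-868388 and 1384 for CP-865520. The count for CP-775146 was 94 without its 5 day replicate 2, 234 and 239 without its 24 h replicates 3 and 4 and 725 without its 5 day replicate 1. That for CP-868388 was 184 without its 24 h replicate 1, and that for CP-865520 was 907 without its 5 day replicate 1. Centring on the spikes left 86 called for the mean of the compounds. Probe set 98590_AT was among those called, with a time difference of 0.70 in the mean of the compounds, against 1.35 under vehicle (interaction -0.65, adjusted p in the limma fit 0.00121). Its choice by the vehicle rise favours a negative interaction. For 162006_R_AT, 103015_AT and 162011_F_AT the interaction was -0.18, 0.76 and 0.25, with adjusted p of 0.523, 0.219 and 0.655.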

How the data were processed

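Liver RNA of 30 mice was measured on 1 biotin-labelled Affymetrix array each. The authors deposited linear-scale intensities, made with MAS5 per the submitters' processing notes. What version and target intensity were used, and which step made 50 the lowest value, is not stated in the labels or files. All 30 columns were used, with groups taken from the titles. Kept were probe sets that exceeded the floor, which is also the median value of the table, on 2 arrays or more, controls included. Values were taken as log2(value + 50), with no further normalization. Group means were fitted to all 30 arrays with limma 3.58.1 in R 4.3.3 (eBayes with an intensity trend, tested on simulated data), and tests were two-sided with Benjamini-Hochberg adjustment. Array measures were compared by exact permutation tests. Plots used matplotlib 3.10.9 in Python 3.11.15.

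Precision is limited by how few arrays each group has. The 4 traced probe sets, taken from those other than controls, were called in the vehicle comparison, with no overlap of arrays and a mean of at least 200 in the brighter group, and had the largest difference, 2 in each direction. The comparison, the probe sets and the lists were chosen with earlier results of these data known. Lists of liver, circadian and other genes that had been planned need gene symbols and were not applied, since no table used here pairs probe sets with genes. Alternatives were other pseudocounts (1 and 100), filters and scalings, an integrity covariate, a replicate block, fewer arrays, and 2 chosen after seeing the data: centring on the hybridisation spikes, and leaving out 3 agonist arrays with a low Gapdh 5' to 3' ratio.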

Additional observations from a re-analysis of the deposited data

Results flagged for a closer look

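The time difference under the compounds departed from that under vehicle for 692 probe sets in the mean of the 3 compounds, and for 389, 283 and 1384 under CP-775146, CP-868388 and CP-865520 (interaction in the limma fit). Of the 38 traced and control probe sets tested in this way, 4 were called for the mean of the compounds, beside 8.65% of all 8002 tested probe sets. These were 98590_AT at -0.648 (adjusted p 0.00121, called in 41 of 42 alternatives), the 5' antisense probe set of beta-actin at -0.496 (0.00306, 40 of 41), the 3' probe set of Gapdh at -0.715 (0.0285, 34 of 41) and the middle probe set of Gapdh at -0.743 (0.0382, 28 of 41). Centring on the spikes gave the highest adjusted p of each, 0.176, 0.373, 0.323 and 0.334. Probe set 98590_AT was chosen for its large vehicle rise, and the interaction subtracts that same rise. Its negative value is thus favoured by the choice and is no independent result.

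Single arrays stood apart from the other 3 of their group in 13 of 153 groups of values, where chance gives about 1 in 20 if values are not tied. In 4 of the 13 the other 3 arrays were all at the floor of 50, so that any value above it stands apart, and that rate does not apply to them. In vehicle livers, 5 day replicate 1 had 927 for the 5' BioDn spike (others 1278 to 1318), 50 for the control MURFAS (others 81 to 84) and 54 for 103015_AT (others at the floor of 50), and 24 h replicate 4 had 58 for the 3' control of the transferrin receptor (others at 50). Under CP-868388, 5 day replicate 1 had 914 for 98590_AT (others 1123 to 1136), 5 day replicate 4 had 93 for 103015_AT (others at 50), 5 day replicate 3 had 50 for the 5' probe set of 18S (others 106 to 114) and 5714 probe sets above the floor (others 6122 to 6204), and 24 h replicate 1 had a highest intensity of 23131 (others 21346 to 21607). Under CP-775146 at 24 h, replicate 1 had 262 for 162011_F_AT (others 374 to 383) and replicate 3 had 51 for the middle probe set of 18S (others at 50). Under CP-865520, 24 h replicate 4 had 471 for the middle probe set of 18S (others 51 to 111), and 5 day replicate 1 had a mean log2 gap of 0.121 between the probe sets that rose and those that fell in vehicle livers (others 0.173 to 0.179).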

How the results depend on the processing

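The vehicle count of 1819 stayed within 1.5 times in 17 of 20 alternatives. The exceptions were the fit of the groups compared alone (1164), leaving out 5 day replicate 2 (1188, in a range of 1188 to 2031 over the arrays left out) and centring on the spikes (3643). The fit of the groups compared alone, with fewer arrays to estimate the spread, gave 1245 under CP-775146, 241 under CP-868388 and 499 for plain _AT sets that fell. Centring on the spikes gave 4648, 102 and 4473 under CP-775146, CP-868388 and CP-865520, 5125 for their mean, 86, 28, 159 and 124 for the interactions (mean, then single compounds in that order), 22 for _R_AT sets that rose and 3078 for plain _AT sets that fell. The cause was not tested. The integrity covariate gave 607 and 99 for the interactions of CP-775146 and CP-868388, and CP-868388 had 117 without the 3 arrays of low Gapdh ratio.

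With 1 array left out, the counts ranged from 508 to 2151 (CP-775146), 380 to 690 (CP-868388), 2132 to 2664 (CP-865520), 2541 to 3293 (mean), 503 to 892 (interaction of the mean), 94 to 725, 184 to 365 and 907 to 1486 (single interactions), 8 to 15 (controls), 147 to 183 (_R_AT that rose) and 457 to 885 (plain _AT that fell). The small 5' to 3' ratio differences changed sign, Gapdh from -0.0259 to 0.0504 and pyruvate carboxylase from -0.0627 to 0.0543 (0.0177 with a pseudocount of 50), while beta-actin kept it (-0.255 to -0.125).

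Among single controls, centring on the spikes reversed BioB 5' (-0.0055), BioB middle (-0.0687), BioC 3' (-0.13), BioC 5' (-0.0508), BioDn 5' (-0.0374), MUR_B2 (-0.27), MURFAS (-0.22), MURINE_B2 (-0.11) and the 3' transferrin receptor control (-0.33), and quantile normalization reversed MURINE_B2 (-0.0324) and the transferrin receptor control (-0.0054). With 1 vehicle array left out the transferrin receptor control ranged from -0.0089 to 0.0485. None of these was called. The 5 BioB, BioC and BioDn reversals follow from the centring itself, which sets the mean of the 9 spikes to be equal.

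The replicate numbers did not pair the arrays: deviations of same-numbered arrays correlated at 0.04, 0.00, 0.15 and -0.04, and the fit with a replicate block called 1688 (842 higher, 846 lower). The planned gene lists were not run. The floor limits every dim probe set.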
